A study of Mus musculus with 12 samples.

Results

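The 10 genes described here belong to the interferon-gamma response and were followed in inflamed mouse pancreas with and without the receptor tyrosine kinases AXL and MERTK. They were chosen by name, as rows of the deposited count table: the guanylate-binding proteins Gbp2, Gbp3, Gbp5 and Gbp7, the immunity-related GTPases Irgm1, Irgm2, Iigp1 and Igtp, and the chemokines Cxcl9 and Cxcl10. All 10 are among the 46095 genes of the table, and 9 had enough counts to be tested, the exception being Igtp. The table holds 12 libraries of pancreas total RNA: WT 1 to 6 from wild type C57BL/6J and AMKO 1 to 6 from Axl-/-Mertk-/- animals, aged 56 days after birth. All of them, wild type included, had been given caerulein, which overstimulates acinar cells and causes acute pancreatitis, as 10 injections into the peritoneum 1 h apart (100 µg/kg), and tissue was taken 12 h after the first. No untreated pancreas was analysed here, so each comparison is between genotypes within pancreatitis. No source used here states the strain on which AMKO animals were kept, so strain and receptor loss cannot be told apart.

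Interferon-gamma is made mainly by T cells and natural killer (NK) cells. It binds the receptor IFNGR1/IFNGR2, whose kinases JAK1 and JAK2 start the signal. Among the factors that then switch on the GTPase and chemokine genes studied here is IRF1. GBPs and immunity-related GTPases (IRGs) attack the membranes around intracellular pathogens, and CXCL9 and CXCL10 draw in T and NK cells through the receptor CXCR3. Many of the same genes also answer to type I interferon, through STAT2 and IRF9. AXL and MERTK bind dying cells through bridging proteins and are known to restrain innate immune signalling.

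Library totals ran from 10668637 to 15184371 counts. Levels below are CPM (a gene's share of the scaled library total), and a mean is followed by its SD over n = 6 libraries. Of the targeted genes, Axl averaged 58.9 ± 12.3 CPM in the wild type libraries but 9.09 ± 2.20 in those of AMKO, and Mertk 6.90 ± 2.96 and 6.75 ± 2.39 CPM. Counts over the whole gene do not check the Mertk disruption. Some libraries stand apart from others of their own genotype, and the cause was not tested. WT 1 to 3 held 2 to 7 counts of albumin, a liver transcript, against 141 to 309 in the other 9, and WT 3, WT 6, AMKO 3 and AMKO 6 were low for neutrophil markers (48.2 to 62.7 CPM summed, against 156 to 586 CPM in the other 8). The main result below is therefore also given without them.

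One of the 9 tested genes passed the test between the genotypes. Irgm1, a regulatory GTPase that guards host membranes, fell in AMKO to 18.7 ± 7.77 CPM from 45.3 ± 15.7 CPM. Over all 13743 genes tested, 3.37% were called lower in AMKO and 2.41% higher (edgeR quasi-likelihood test, Benjamini-Hochberg adjusted p under 0.05). The other 8 genes had fitted log2 fold changes of -1.10 to -0.25 and did not pass. All 9 fitted values lay below 0, with a median of -0.73, against 50.3% of all tested genes below 0 and a median of -0.00. The 9 genes moved together across the libraries, so their signs are not 9 independent results. None of the 9 had every AMKO library below every wild type library, a separation seen in 2.3% of all tested genes. The AMKO libraries differed among themselves. AMKO 1 and AMKO 5 were above AMKO 2, 3, 4 and 6 for 9 of 9 genes, and for 5 of 9 all 4 of those libraries lay below the lowest wild type library. This split of the AMKO libraries was picked from the same data, so both counts are only a description. Their shares over all tested genes were not counted.

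**Figure D1:**
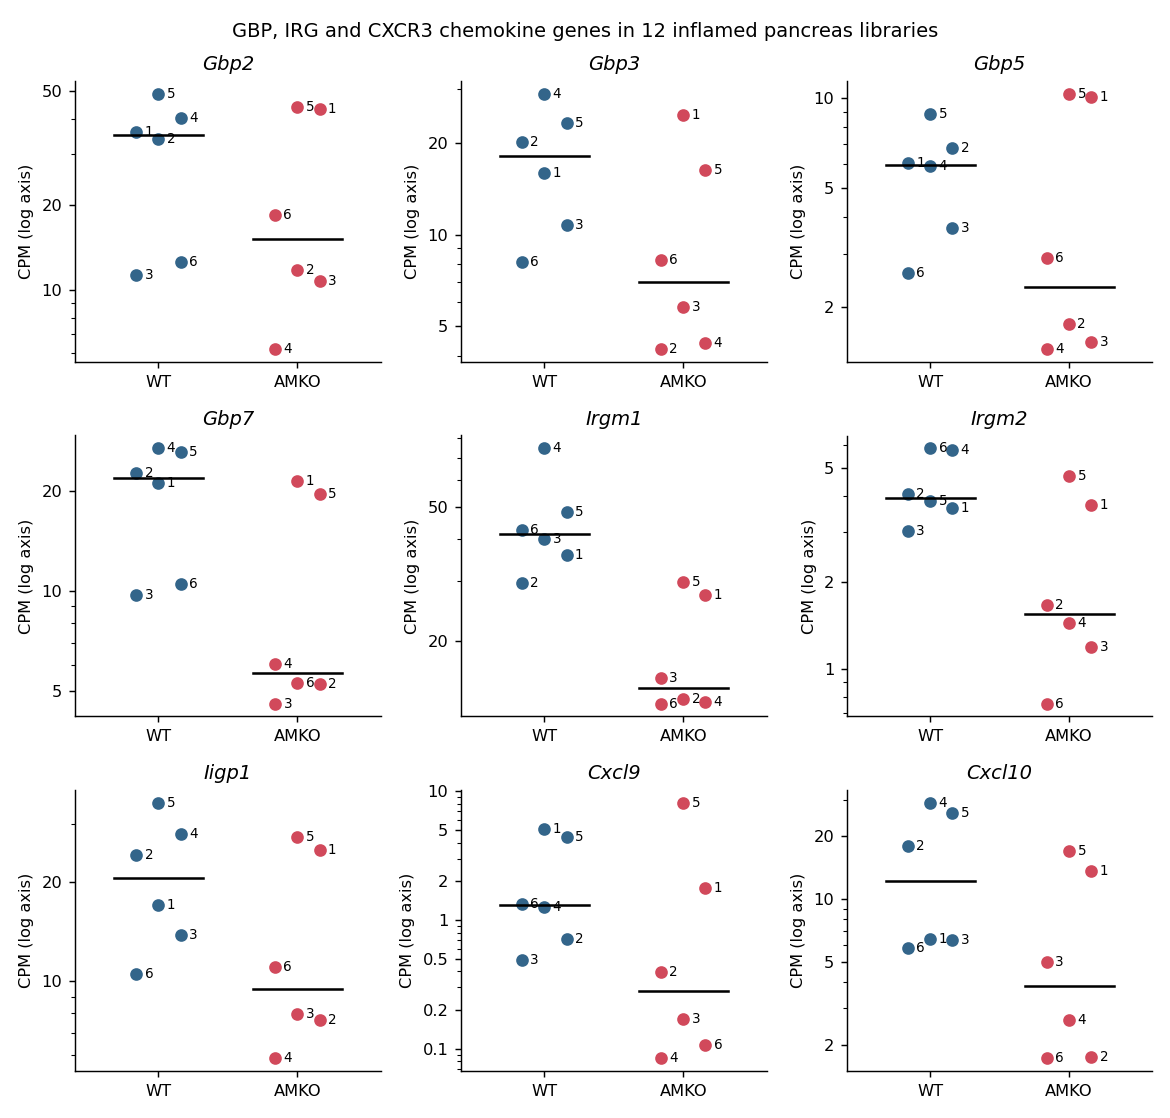
Level in CPM (log axis) of the 9 tested genes in each library, with wild type in blue and AMKO in red, the replicate number beside each point and a bar at the group median. AMKO 1 and AMKO 5 lie above the other 4 AMKO libraries in each panel, and the groups come closest to separating for Irgm1, where AMKO 5 (29.9 CPM) lies just above WT 2 (29.7 CPM).

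The sequences before the RefSeq starts were searched for motifs of interferon response. In the 250 bases before each RefSeq start (GRCm38.p6; 10 starts of 9 genes, with no entry used for Iigp1), 2 motifs were searched on both strands. The interferon-stimulated response element was taken as GAAA, any 2 bases and GAAA again (TTTC, 2 bases and TTTC on the other strand) and the gamma-activated site as TTC, any 3 bases and GAA, its own reverse complement. The former was found for 8 of the 9 genes and in 2.98% of 32851 promoters of the same length. The latter was found for 4 of the 9 genes and in 7.02% of promoters. Gbp5, Gbp7, Irgm2 and Igtp held both, a combination found in 0.332% of promoters, and no match of one motif overlapped a match of the other. GENCODE places exons in some of these stretches, over 250 of the 250 bases for Irgm1, 61 for Gbp2, 34 for Gbp5, and 18 and 178 for the 2 starts of Gbp3, and over none for the other 5 genes. The stretches of Irgm1, Gbp5 and Irgm2, and the Gbp3 stretch with 178 exonic bases, lie wholly inside the annotated spans of these genes. A match is a run of letters and not a measured binding site. The 30 bases around the match nearest the start are shown for the 8 genes with any match, with matches in capitals, so that the near-identical stretches of Irgm2 and Igtp and the doubled elements of Irgm1 and Gbp3 can be compared. They lie at chr3:142620594-142620623 (Gbp2, + strand), chr3:142559992-142560021 (Gbp3, +), chr3:142496872-142496901 (Gbp5, +), chr3:142530273-142530302 (Gbp7, +), chr11:48871428-48871457 (Irgm1, -), chr11:58214898-58214927 (Irgm2, +), chr11:58199507-58199536 (Igtp, +) and chr5:92349083-92349112 (Cxcl10, -).
Gbp2: actcttttagTTTCACTTTCactgtcttaa
Gbp3: gacacagTTTCAGTTTCTATTTCccagatc
Gbp5: tggccgttatTTCTCAGAAccaagcacaga
Gbp7: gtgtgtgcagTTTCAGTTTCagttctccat
Irgm1: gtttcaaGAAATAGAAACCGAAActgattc
Irgm2: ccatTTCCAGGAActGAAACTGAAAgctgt
Igtp: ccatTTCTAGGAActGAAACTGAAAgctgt
Cxcl10: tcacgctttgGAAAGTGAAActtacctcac

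The chemokine gene Cxcl9 had no match to either motif in its 250 bases, whereas its neighbour Cxcl10 had 1 match, whose first base lies 213 bases before the start. Both stretches are printed whole because these neighbouring genes, which share the receptor CXCR3, differ in these matches. A stretch without a match may still hold a response element spelled otherwise. They lie at chr5:92348890-92349139 (Cxcl10) and chr5:92328080-92328329 (Cxcl9), both on the - strand, with the match in capitals.
Cxcl10: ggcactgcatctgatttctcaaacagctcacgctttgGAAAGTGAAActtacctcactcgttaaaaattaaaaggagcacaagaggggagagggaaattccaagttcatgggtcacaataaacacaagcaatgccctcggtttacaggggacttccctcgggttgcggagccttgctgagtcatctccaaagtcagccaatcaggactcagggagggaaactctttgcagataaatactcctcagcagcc
Cxcl9: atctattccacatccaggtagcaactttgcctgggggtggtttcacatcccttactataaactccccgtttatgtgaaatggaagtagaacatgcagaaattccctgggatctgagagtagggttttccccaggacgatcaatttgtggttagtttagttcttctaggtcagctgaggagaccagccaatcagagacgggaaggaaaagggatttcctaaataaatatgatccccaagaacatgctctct

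Irgm1 (chromosome 11, 48861968 to 48871683, GRCm38) was the 1 IRG called between the genotypes, and whether it differed from the other IRGs in its response was not tested. In wild type its level was lowest in WT 2 at 29.7 CPM, with a median of 41.5 and a highest value of 74.7 CPM in WT 4. In AMKO it was lowest in AMKO 6 at 13.0 CPM, with a median of 14.5 and a highest value of 29.9 CPM in AMKO 5. The groups overlapped only through AMKO 5 and WT 2, and 5 of 6 AMKO libraries lay below every wild type library. The log2 fold change was -1.26 (SE 0.26, 95% confidence interval -1.82 to -0.70, adjusted p = 0.0128, edgeR quasi-likelihood test). The call held in each of the 12 fits without 1 library (log2 fold change -1.43 to -1.06, adjusted p up to 0.0378). Against WT 4 to 6 alone it was -1.54 (adjusted p = 0.0305), but against WT 1 to 3 alone it was -0.91 and did not pass (adjusted p = 0.146). Without the 4 libraries low for neutrophil markers it was -1.16 and did not pass either (adjusted p = 0.156).

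Irgm2, a regulatory relative of Irgm1 (chromosome 11, 58199618 to 58222782), ran from 3.02 to 5.85 CPM in wild type with a median of 3.94 CPM. In AMKO it ran from 0.757 CPM in AMKO 6 to 4.69 CPM in AMKO 5 with a median of 1.56 CPM. AMKO 2, 3, 4 and 6 lay below every wild type library, and AMKO 1 and AMKO 5 lay inside the wild type range. The log2 fold change of -0.93 (SE 0.37, 95% confidence interval -1.73 to -0.13) did not pass after adjustment (adjusted p = 0.159, edgeR). Without AMKO 5 it was -1.26 and passed (adjusted p = 0.0412).

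Igtp, the third regulatory IRG, was listed with 0 to 3 counts in wild type and 0 to 1 in AMKO, below the count filter of the main test and too few for a fold change. Its locus (58199556 to 58207591) lies almost wholly inside the annotated span of Irgm2 on the same strand, and the exons of both share 162 bases, 8.01% of those of Igtp. No source used here states how reads there were assigned, so the low count of Igtp need not mean low expression and the counts of Irgm2 are uncertain.

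Iigp1, an effector IRG that loads onto pathogen vacuoles (chromosome 18, 60376027 to 60392634), ran from 10.5 to 34.8 CPM in wild type with a median of 20.6 CPM. In AMKO it ran from 5.86 to 27.4 CPM with a median of 9.51 CPM. AMKO 6 (11.0 CPM) lay above WT 6 (10.5 CPM), and AMKO 1 and AMKO 5 (27.4 CPM) each exceeded 4 wild type libraries, so the groups overlapped broadly. Its log2 fold change was -0.58 (SE 0.40, 95% confidence interval -1.43 to 0.27, adjusted p = 0.419, edgeR).

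The 4 GBPs lie on 1 stretch of chromosome 3, between 142493978 and 142638008, with Gbp2b between Gbp3 and Gbp2, and had broadly overlapping groups. Gbp7, linked to assembly of the phagocyte oxidase, had the lowest fitted value of them. It ran from 9.70 to 26.8 CPM in wild type with a median of 21.8 CPM, and in AMKO from 4.59 to 21.3 CPM with a median of 5.66 CPM. AMKO 2, 3, 4 and 6, at 6.03 CPM or less, all lay below WT 3, the lowest wild type library. The log2 fold change was -0.89 (SE 0.42, 95% confidence interval -1.79 to 0.01, adjusted p = 0.234, edgeR). An annotated pseudogene, Gm43802, shares 637 identical bases with Gbp7 and overlaps it, so its counts are uncertain.

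Gbp3 ran from 8.11 to 28.9 CPM in wild type (median 18.0 CPM) and from 4.21 to 24.6 CPM in AMKO (median 7.0 CPM). Its lowest wild type library, WT 6, lay just under AMKO 6 (8.22 CPM). The log2 fold change of -0.73 (SE 0.44) had an adjusted p of 0.347 (edgeR).

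Gbp2, a prenylated GBP that coats pathogen membranes, ran from 11.3 to 49.0 CPM in wild type (median 35.1 CPM). In AMKO it ran from 6.20 to 44.1 CPM (median 15.1 CPM). WT 3 and WT 6, at 11.3 and 12.6 CPM, lay among AMKO 2, 3, 4 and 6, whose values were 6.20 to 18.4 CPM, so the groups overlapped. The log2 fold change was -0.43 (SE 0.48, 95% confidence interval -1.46 to 0.60, adjusted p = 0.646, edgeR).

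Gbp5, which promotes inflammasome assembly, ran from 2.59 to 8.88 CPM in wild type (median 5.98 CPM) and from 1.44 to 10.3 CPM in AMKO (median 2.33 CPM). The highest library of all 12 was AMKO 5, followed by AMKO 1 at 10.1 CPM. Its log2 fold change of -0.25 (SE 0.51) had an adjusted p of 0.818 (edgeR) and was the nearest to 0 of the 9.

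The 2 chemokines, neighbours on chromosome 5, varied more between libraries than the GTPases. Cxcl10 (92346638 to 92348889) ran from 5.85 CPM in WT 6 to 29.0 CPM in WT 4, with a median of 12.2 CPM. In AMKO it ran from 1.73 CPM in AMKO 6 to 16.9 CPM in AMKO 5, with a median of 3.82 CPM. AMKO 2, 3, 4 and 6 (1.73 to 5.02 CPM) were all below the lowest wild type library, while AMKO 1 and AMKO 5 exceeded WT 1, WT 3 and WT 6. The log2 fold change of -1.10 (SE 0.60, 95% confidence interval -2.39 to 0.20) did not pass (adjusted p = 0.31, edgeR). On the opposite strand Art3 shares 133 exonic bases with Cxcl10, and no source used here states whether counting used the strand.

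Cxcl9 (92321347 to 92328079) was scarce, with 6 to 82 counts in wild type and 1 to 111 in AMKO. Its level ran from 0.489 to 5.06 CPM in wild type (median 1.3 CPM). AMKO 2, 3, 4 and 6 held 0.0849 to 0.397 CPM, below every wild type library, whereas AMKO 5 held 8.14 CPM, the highest of all 12, and AMKO 1 1.79 CPM. The fitted log2 fold change was -0.27 with an SE of 0.90 (95% confidence interval -2.20 to 1.67, adjusted p = 0.896, edgeR), and its sign turned without WT 1 (0.19) or without WT 5 (0.03).

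**Figure D2:**
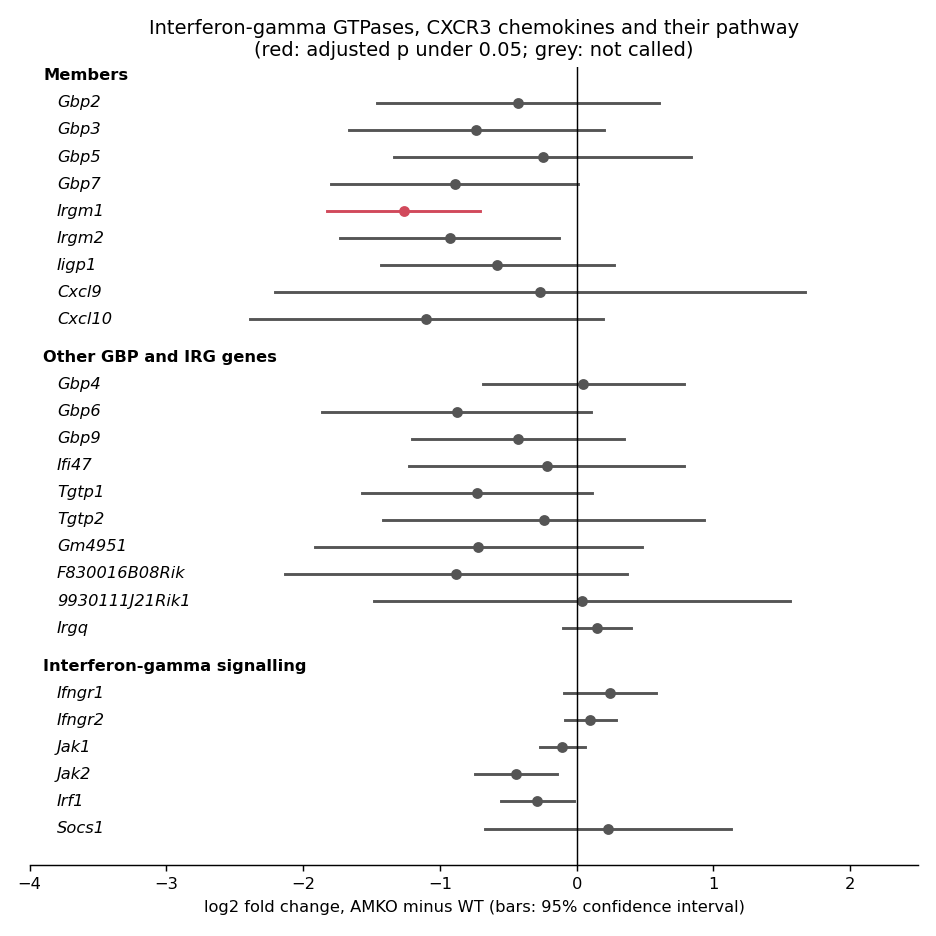
Fitted log2 fold change (AMKO minus wild type, dots) with its 95% confidence interval (bars) for the 9 tested genes, the other tested GBP and IRG genes, and 6 tested genes of interferon-gamma signalling. Irgm1, at -1.26, is the only one that passed the test (red), and the interval of Cxcl9 is the widest of the 9, from -2.20 to 1.67.

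Per kilobase of annotated exon, which allows levels of different genes to be compared, Gbp2 was highest in wild type at 12.1 ± 6.08 CPM per kb. Irgm1 followed at 7.79 ± 2.70 and Cxcl10 at 6.76 ± 4.66 CPM per kb. Next came Gbp3 at 5.46 ± 2.39, Iigp1 at 3.67 ± 1.58 and Gbp7 at 3.47 ± 1.35 CPM per kb, and neighbours in this order overlapped in range. Irgm2 (1.18 ± 0.318 CPM per kb, at most 1.58) lay below the whole range of Gbp7 (at least 1.73). Gbp5 (0.851 ± 0.339) and Cxcl9 (0.732 ± 0.658 CPM per kb) overlapped with Irgm2 and with each other. In AMKO, Irgm1 averaged 3.22 ± 1.34 CPM per kb, beside Gbp3 at 3.24 ± 2.51 and Cxcl10 at 3.09 ± 2.95 CPM per kb.

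The libraries low for the GBPs in wild type were not low for Irgm1. WT 3 and WT 6 were the lowest wild type libraries for 6 of the 9 genes, namely the 4 GBPs, Iigp1 and Cxcl10. The summed level of the 4 GBPs was 35.5 CPM in WT 3 and 33.8 CPM in WT 6, against 79.1 to 107 CPM in the other 4 wild type libraries. Irgm1 stood at 40.2 and 42.8 CPM in WT 3 and WT 6, above WT 1 (36.0 CPM) and WT 2 (29.7 CPM). In AMKO 1 and AMKO 5 the GBPs summed to 99.5 and 90.3 CPM, within the wild type range, while Irgm1 stood at 27.3 and 29.9 CPM. Whether Irgm1 differed from the GBPs in its response was not tested.

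**Figure D3:**
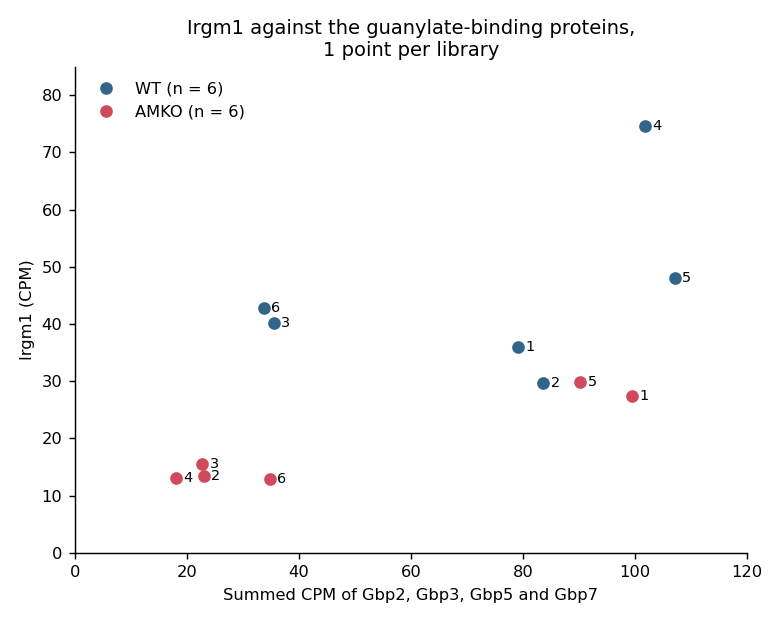
Irgm1 (CPM, vertical axis) against the summed CPM of Gbp2, Gbp3, Gbp5 and Gbp7 (horizontal axis), 1 point per library with its replicate number. WT 3 and WT 6 join AMKO 2, 3, 4 and 6 at low GBP levels but keep Irgm1 at 40.2 and 42.8 CPM, and AMKO 1 and AMKO 5 have GBP sums of 99.5 and 90.3 CPM with Irgm1 below 30 CPM.

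Summed markers of lymphocytes and macrophages were highest in AMKO 1 and AMKO 5, the same 2 AMKO libraries that were highest of that genotype for the GTPases and chemokines. Summed over 6 B and plasma cell markers the level was 208 CPM in AMKO 1 and 81.4 CPM in AMKO 5, against 0.897 to 45.9 CPM in wild type and 2.12 to 4.61 CPM in the other AMKO libraries. The 7 macrophage markers summed to 511 and 596 CPM in AMKO 1 and AMKO 5, against 128 to 308 CPM in wild type and 223 to 287 CPM in AMKO 2, 3, 4 and 6. The 14 T and NK cell markers summed to 17.9 and 9.61 CPM there, against 1.06 to 5.67 CPM in wild type, none passed the count filter, and the T cell receptor gene Trac was listed at 0 throughout. The 7 neutrophil markers did not set these libraries apart (230 and 328 CPM, within 60.7 to 586 CPM in wild type), and the 6 dendritic cell markers did so only in AMKO 1 (21 CPM, with AMKO 5 at 9.90 CPM and wild type libraries at 3.67 to 12.4 CPM). Within wild type, WT 3 and WT 6, the libraries lowest for the GBPs, had the lowest macrophage sums, at 128 and 226 CPM. Their B and plasma cell sums (0.897 and 11.1 CPM) and T and NK cell sums (1.06 and 2.59 CPM) were also the lowest there. The same held for neutrophil sums (62.7 and 60.7 CPM). For dendritic cell markers WT 5 (5.42 CPM) lay below WT 6 (5.58 CPM). Not every marker followed its sum. Ncr1, Gzma and Gzmb were highest in WT 4, WT 6 and WT 1, and Adgre1 was higher in WT 1 (65.4 CPM) than in AMKO 1 (52.7 CPM). The macrophage marker Mrc1 was called higher in AMKO (log2 fold change 0.81, adjusted p = 0.0211, edgeR). Its level in AMKO 5 (80.0 CPM) was below that in AMKO 4 (97.3 CPM). The part of these cell types in the result was not tested. In bulk tissue fewer cells of a type and less RNA per cell cannot be told apart.

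**Figure D4:**
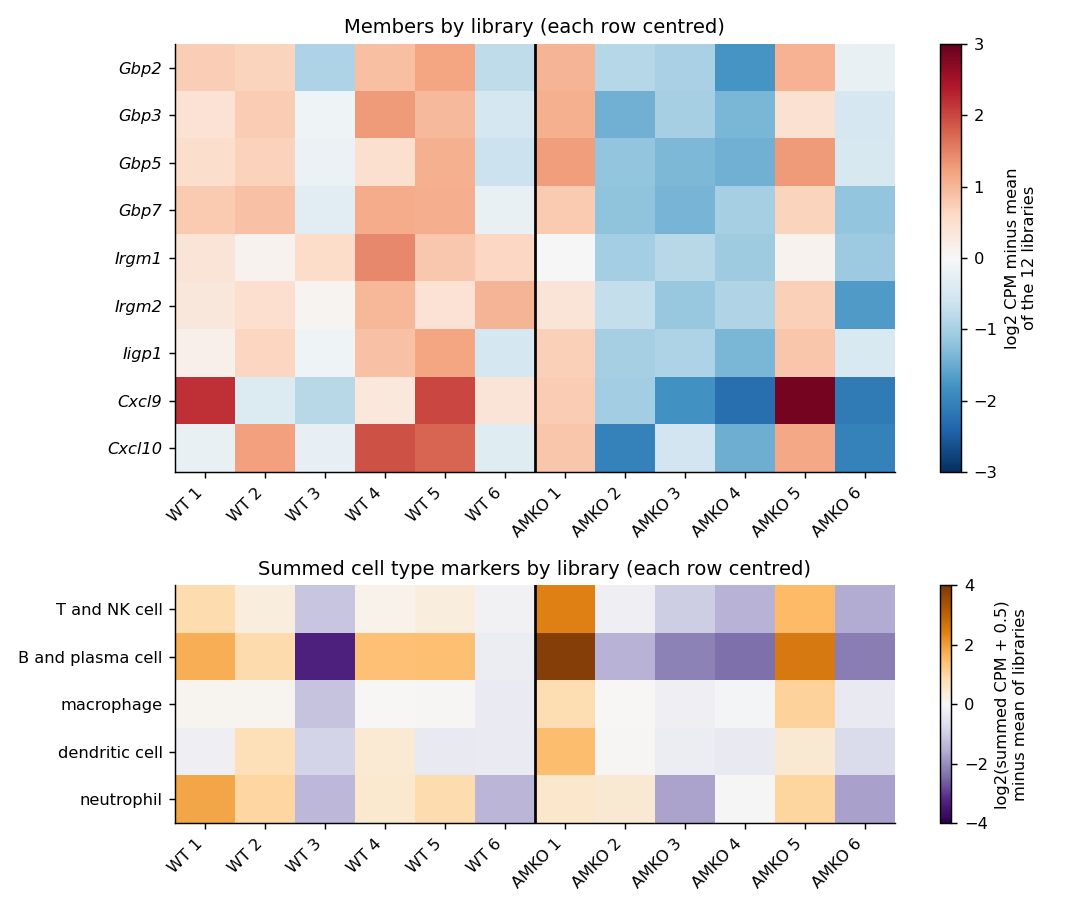
Top, log2 CPM of the 9 tested genes in the 12 libraries, each row minus its mean (red high, blue low). Bottom, log2 of the summed CPM (plus 0.5) of 5 sets of cell type markers, each row minus its mean (orange high, purple low). AMKO 1 and AMKO 5, with B and plasma cell sums of 208 and 81.4 CPM, are high in most rows of both panels. They are not high for Irgm1, and their neutrophil sums lie within the wild type range.

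Upstream of these genes, interferon-gamma itself was barely counted. Ifng had 0 counts in 10 of 12 libraries, at most 1 count in wild type and 5 in AMKO. Its receptor chains did not pass the test: Ifngr1 averaged 32.1 ± 4.43 CPM without and 37.9 ± 10.2 CPM with the double knockout (0.24 on the log2 scale, adjusted p = 0.39, edgeR, SE 0.16) and Ifngr2 at 65.2 ± 7.57 and 70.0 ± 6.63 CPM. Fitted log2 differences were -0.44 for the kinase gene Jak2 (adjusted p = 0.0755, SE 0.14) and -0.29 for Irf1 (adjusted p = 0.197, SE 0.13). Both had an unadjusted p under 0.05, as had 3008 of all 13743 genes tested, and neither passed after adjustment. Socs1, a feedback inhibitor of the pathway, differed by 0.23 on that scale (adjusted p = 0.795, SE 0.42).

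Of 48 further genes of the pathway, 28 were tested and 0 passed in either direction by edgeR (5.78% of all genes tested were called in either direction). At an unadjusted p under 0.05 there were 3 of the 28, and 3008 of all 13743 genes tested. DESeq2 called 1 of 30, Jak2, and 1267 of the 14479 genes it tested. With sample weights, limma voom called 5 of 28, all lower, and 1664 of all 13743 genes tested, 855 of them lower. The median log2 fold change of the 28 by edgeR was -0.23. The other GBPs with enough counts, Gbp4, Gbp6 and Gbp9, had log2 fold changes of 0.05, -0.88 and -0.43 (adjusted p = 0.951, 0.283 and 0.529), and the 7 other IRGs ran from -0.88 to 0.15. The other chemokine of CXCR3, Cxcl11, had 2 to 8 counts in each wild type library and 0 to 3 in AMKO, and Cxcr3 had at most 7 and 21 counts. Genes of antigen presentation that interferon-gamma induces had both signs. B2m, the light chain of class I molecules, stood at 290 ± 69.3 and 200 ± 107 CPM (log2 fold change -0.54, SE 0.28, adjusted p = 0.287), and Cd74, the class II invariant chain, at 48.2 ± 19.5 and 88.6 ± 76.3 CPM (0.88, SE 0.45, adjusted p = 0.269). The higher mean of Cd74 came from AMKO 1 (234 CPM) and AMKO 5 (113 CPM), and its median was lower in AMKO (52.8 CPM) than in wild type (55.7 CPM).

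Of 16 type I interferon genes, 6 were called lower (3.37% of all genes tested were). The 6 were the transcription factor genes Stat2 and Irf9, and Rsad2, Usp18, Xaf1 and Ifih1. In each of these 6 every AMKO library lay below every wild type library, a separation seen in 2.3% of all tested genes. The 6 were picked by their call, so this separation only describes them. For the factor Irf7, which was not called (adjusted p = 0.0658, edgeR), 4 of 6 AMKO libraries lay below every wild type library. The mean of Stat2 was 88.8 ± 16 CPM for wild type against 41.1 ± 9.68 for AMKO, a log2 difference of -1.11 (adjusted p = 0.00127, edgeR, SE 0.15). That of Irf9 was 49.9 ± 9.61 against 26.6 ± 5.89 CPM (-0.90, adjusted p = 0.00415, SE 0.15). Whether the type I genes changed more than the interferon-gamma genes was not tested.

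With the genotype means removed, the 9 genes moved together over the 12 libraries taken as 1 set. No r was computed inside a single genotype. In wild type Irgm2 was highest in WT 6, where Gbp3, Gbp5 and Iigp1 were lowest. After each gene's log2 CPM was centred on its genotype mean, the Pearson r of a gene with the mean of the other 8 over the 12 libraries was highest for Gbp7 (0.958) and lowest for Irgm2 (0.732), with Irgm1 and Cxcl9 both at 0.776. This is a description with no test, since the libraries share their tissue and differ in the summed leukocyte markers. By the same measure, the genes most like the mean of the 9 included Plac8, Tgtp2, H2-T23, Ly86, Gbp9, Ifi47, Gbp4, Oasl2 and Lsm4, with r from 0.959 to 0.978. The IRGs Tgtp2 and Ifi47, the GBPs Gbp9 and Gbp4, and the 2'-5' oligoadenylate synthetase-like gene Oasl2 are interferon genes, H2-T23 encodes a class I-like molecule and Ly86 a surface protein of B cells and macrophages. None of these 9 passed the test between genotypes. The spread within AMKO was wider than within wild type for 9 of 9 genes, for instance an SD of 2.03 against 1.24 log2 CPM for Cxcl9 and of 0.55 against 0.45 for Irgm1. How many of all tested genes had a wider spread in AMKO was not counted, so this may not be particular to these genes.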

How the data were processed

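The authors deposited 1 table of raw counts per gene. HISAT2 2.0.4 and the mm10 build are named per the submitters' processing notes. For the counter, annotation and strand setting nothing is stated in the sources used here. Columns were matched to samples by title. No 2 libraries of a genotype agreed within sampling noise (their chi-square over its degrees of freedom was at least 9.15). Which animal gave each sample is not in the labels, so p-values measure only the spread between these samples, which may be technical.

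Genotypes were compared on the deposited counts with the quasi-likelihood F test of edgeR 4.0.16 under R 4.3.3, using TMM scaling and filterByExpr. The model held genotype alone, and p was adjusted by Benjamini-Hochberg over 13743 genes. The SE is the log2 fold change divided by the square root of F. In simulated data for this comparison (13578 genes), the test found 77.6% of 98 genes simulated with a 2-fold change and 97.9% of 97 with a 4-fold one, with 12 false calls among 183.

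Positions, exon lengths and overlaps come from GENCODE M21 (GRCm38, the assembly mm10 names), promoters from RefSeq (GRCm38.p6), and copies of at least 95% identity over 300 bases from BLAST 2.17.0. The genes and lists were chosen with earlier results of these data known. The text names all 10 genes, the targeted genes, called or fixed members of the pathway lists and the 10 most alike genes (log2 CPM with a prior count of 2), except 1 gene that is not reported here. Jak2, B2m, Cd74 and the other GBPs were named after their values were seen.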

Additional observations from a re-analysis of the deposited data

Results flagged for a closer look

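Cxcl9 in AMKO 5 lay far from the other AMKO libraries. It stood at 8.14 CPM, with AMKO 1 next at 1.79 CPM, and this gap was 0.788 of the range of the group. The search used CPM, and on the log2 scale AMKO 5 stood at 3.05, AMKO 1 at 0.96 and the lowest, AMKO 4, at -2.07. Among the 18 groups of 6 libraries searched, 1 was picked out. Chance picks out about 1 in 20 if values are normally distributed, which was not checked for CPM. The 18 groups share the same libraries, so they are not independent.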

How the results depend on the processing

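Irgm1 stayed below 0 in all 25 alternatives and was called in 23, with log2 fold changes of -1.54 to -0.91 and adjusted p of 6.0e-05 to 0.156. The number of the 9 genes called was 1 under every scaling, count filter, DESeq2, a sex term read from sex-linked transcripts, and WT 4 to 6 alone. It was 4 with limma voom and quality weights (Irgm1, Irgm2, Gbp3 and Gbp7). It was 0 against WT 1 to 3 alone and 0 without WT 3, WT 6, AMKO 3 and AMKO 6. Those fits held fewer samples, as did the fit against WT 4 to 6 alone, which kept the call of Irgm1. Without 1 library in turn the number of the 9 genes called ran from 1 to 2. Pathway genes called numbered 0, but 1 with DESeq2 (Jak2), 5 with limma voom, and 0 to 1 without 1 library (1 without AMKO 1, Jak2, and 1 without AMKO 5). The cause was not tested. With the replicate number as a block, 2 of the 9 genes (Irgm1 and Gbp7) and 2 pathway genes, Jak2 among them, were called. The labels do not pair the samples, and same-numbered libraries deviated together by r over 0.1 in only 4 of 6 pairs (-0.16 to 0.346), with 3 of 12 libraries correlating best with their own number. Cxcl9 ran from -1.94 to 0.19 without 1 library and changed sign without WT 1 (0.19) and WT 5 (0.03). The number of all genes called was 794, but 456 without scaling factors, 1267 with DESeq2, 1664 with limma voom, 167 and 231 against WT 4 to 6 and WT 1 to 3, 98 without WT 3, WT 6, AMKO 3 and AMKO 6 and 411 to 1140 without 1 library. Counts limit Igtp, Ifng and Cxcl11, which were tested only with no count filter and were not called there, and Cxcl9.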
